A study of Mus musculus with 11 samples.

Results

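The 10 genes described here serve the function of Müller glia or mark their reactive state: Glul, Slc1a3, Aqp4, Kcnj10, Gfap, Vim, Apoe, Clu, Dkk3 and Crym. They were chosen by name, with earlier results of these data known, and all 10 were found as rows of the count matrix, out of 25311 genes in all. The counts came from single-cell RNA sequencing (inDrop droplets with unique molecular identifiers, UMIs, which count each captured RNA molecule once) of whole retinas of C57BL/6J mice at postnatal day 10 (P10). Phase I ROP mice (n = 3) were neonates made hyperglycemic with streptozotocin (STZ), as a model of the first phase of retinopathy of prematurity, and control mice (n = 3) were littermates given the vehicle PBS. The ω-3 (n = 2) and ω-6 (n = 3) mice had STZ as well, and were nursed in separate cages by dams on a diet enriched in the named class of long-chain polyunsaturated fatty acids. They came from other litters than the control and Phase I ROP mice, and the labels name a supplier for the diet-fed mice alone, so that diet, litter, cage and source cannot be told apart where diet-fed mice were set against the others. Each library was 1 mouse, and the eyecup layers other than the retina were taken off at dissection.

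Müller glia are the main glia of the retina and span its whole thickness. They take up glutamate through GLAST (Slc1a3) and turn it into glutamine with glutamine synthetase (Glul), and they clear potassium through the channel Kir4.1 (Kcnj10) and water through aquaporin 4 (Aqp4). Under injury or metabolic stress they enter gliosis, in which the intermediate filaments GFAP (Gfap) and vimentin (Vim) are the usual signs. Apolipoprotein E (Apoe) carries lipid between cells and clusterin (Clu) is a secreted chaperone that also rides on lipid particles. Dkk3 is a secreted protein of the Dickkopf family and Crym encodes µ-crystallin, a cytosolic protein that binds thyroid hormone.

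In the GENCODE annotation of the GRCm38 build, Glul lies at chr1:153899944-153909723 and Kcnj10 at chr1:172341210-172374085, both on the plus strand. Slc1a3 lies at chr15:8634124-8710764 and Gfap at chr11:102887336-102900912, both on the minus strand. Vim (chr2:13573927-13582826) and Clu (chr14:65968483-65981547) are on the plus strand, while Apoe (chr7:19696109-19699188), Dkk3 (chr7:112116017-112159057) and Crym (chr7:120186380-120202111) are on the minus strand. RefSeq (GRCm38.p6) gave the 250 bases before the start site for 6 of the 10 genes. The 3 shown are those of Apoe, the member that passed the test in Müller glia, of Slc1a3, the glutamate transporter that marks these cells, and of Gfap, the gliosis filament that was seldom detected. They are written 5′ to 3′ on the gene's strand, and capitals mark motif letters found on either strand.
Apoe (chr7:19699189-19699438, minus strand): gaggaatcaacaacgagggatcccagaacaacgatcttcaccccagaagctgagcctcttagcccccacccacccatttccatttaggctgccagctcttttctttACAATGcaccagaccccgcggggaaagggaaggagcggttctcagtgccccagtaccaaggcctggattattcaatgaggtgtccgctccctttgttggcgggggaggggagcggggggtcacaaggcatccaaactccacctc
Slc1a3 (chr15:8710808-8711057, minus strand): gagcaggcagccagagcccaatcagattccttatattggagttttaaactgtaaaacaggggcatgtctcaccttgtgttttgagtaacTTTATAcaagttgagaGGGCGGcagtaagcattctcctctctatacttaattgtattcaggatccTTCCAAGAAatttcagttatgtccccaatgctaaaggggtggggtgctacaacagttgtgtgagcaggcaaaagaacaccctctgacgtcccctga
Gfap (chr11:102897201-102897450, minus strand): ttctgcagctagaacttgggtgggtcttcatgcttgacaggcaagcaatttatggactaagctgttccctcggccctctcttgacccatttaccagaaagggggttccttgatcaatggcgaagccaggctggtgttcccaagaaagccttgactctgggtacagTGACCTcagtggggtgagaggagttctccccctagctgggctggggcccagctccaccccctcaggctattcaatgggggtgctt

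The Apoe window held the Sox letters ACAATG at −144 to −139, counted back from the start site. The Slc1a3 window held the TATA letters TATAAA at −161 to −156, on the reverse strand, the GC box GGGCGG at −145 to −140 and the STAT letters TTCNNNGAA at −96 to −88. In the Gfap window, AGGTCA, the core of liver X receptor sites, stood at −85 to −80, on the reverse strand. Of 32851 mouse promoters of the same length, 10.7% held the Sox letters, 12.4% the TATA letters, 32.7% the GC box, 7.02% the STAT letters and 14.0% AGGTCA. AP-1 (TGANTCA, 6.75% of promoters) and CRE (TGACGTCA, 1.55%) were searched as well and were not in these 3 windows. A match describes letters and is no evidence of binding.

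Of 20067 cells deposited, 20033 held more than 300 genes and were clustered. Müller glia, named from their markers, were 1395 cells (6.96%), 43 to 251 in each of the 11 mice, with 147516 to 744300 UMIs per mouse. Rlbp1, a retinoid carrier of these glia, had a UMI in 86.3% of them and in 2.46% of all other cells, and Col9a1, a collagen, in 61.4% and 0.987%. The clusters used 9 of the 10 members among their variable genes, so a higher level in Müller glia than in other classes is a description here and was not tested. Clustering without the members gave 1379 Müller glia, of which 1375 were the same cells. Levels are CPM, the UMIs of a gene scaled to a fixed total of 1000000 UMIs of the class, and n is the number of mice. A lower summed level can mean fewer RNA molecules per cell or fewer cells that hold the RNA, which a sum does not separate.

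The 3 libraries of control mice differed as a set from the 8 of STZ-treated mice. In Müller glia, Fosb, an immediate early gene, was at 3.89 to 6.78 CPM in control mice and at 618 to 1147 CPM in the others. Rn7sk was at 241 to 386 CPM in controls against 0 to 25 CPM, and the mitochondrial ribosomal RNA mt-Rnr2 at 20429 to 33778 CPM against 2403 to 7744 CPM. The summed level of 8 rod markers in Müller glia was 88.1 to 360 CPM in control mice, 656 to 1820 CPM in Phase I ROP mice, 2109 to 2549 CPM with the ω-3 and 1801 to 2699 CPM with the ω-6 diet. How these levels bear on the members was not tested. Treatment and library cannot be told apart in the comparison with control mice, and no such comparison was possible without those libraries.

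Among the classes, most members were highest in Müller glia, but the clusters with the highest Apoe, Clu, Vim and Gfap were others. Glul was at 3672 CPM in the pooled Müller glia and at 2748 CPM in the 47 cells of the astrocyte-like cluster, and Slc1a3 at 3366 and 2289 CPM. Aqp4 was at 284 CPM in Müller glia but had 0 of 279107 UMIs in the astrocyte-like cells, which allows up to 13.2 CPM (exact 95% Poisson limit, for counting error only). Kcnj10 stood at 84.4 CPM in Müller glia and 10.7 CPM in the astrocyte-like cells. Crym was at 3627 CPM in Müller glia and at 21.5 CPM in the astrocyte-like cells. Dkk3 was at 1799 CPM in Müller glia and 1086 CPM in the astrocyte-like cells.

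Apoe was highest in the 58 microglia-like cells, with 17714 CPM (95% interval 17062 to 18384) against 3037 CPM in Müller glia. Clu was highest in the 76 cells of the retinal pigment epithelium-like cluster, at 4829 CPM (4421 to 5265), where Apoe was at 4698 CPM, against 400.4 CPM of Clu in Müller glia. Vim, which many glial and mesenchymal cells make, was at 1898 CPM (1761 to 2043) in the 31 horizontal-like cells, 1376 CPM in the astrocyte-like cells, 1285 CPM in Müller glia and 1222 CPM in the 115 endothelial-like cells. These small clusters pooled few cells of all mice, so their intervals cover counting error and not the spread between mice. Over the 5 large classes, the lowest Müller value of any mouse was above the highest value of the other classes for 8 members. For Clu the highest cone value (238 CPM) passed the lowest Müller value (199 CPM), and Gfap was too rare to order. Below Müller glia, neighbours in the order of classes overlapped between mice, apart from Dkk3, which was higher in amacrine than in bipolar cells.

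**Figure D1:**
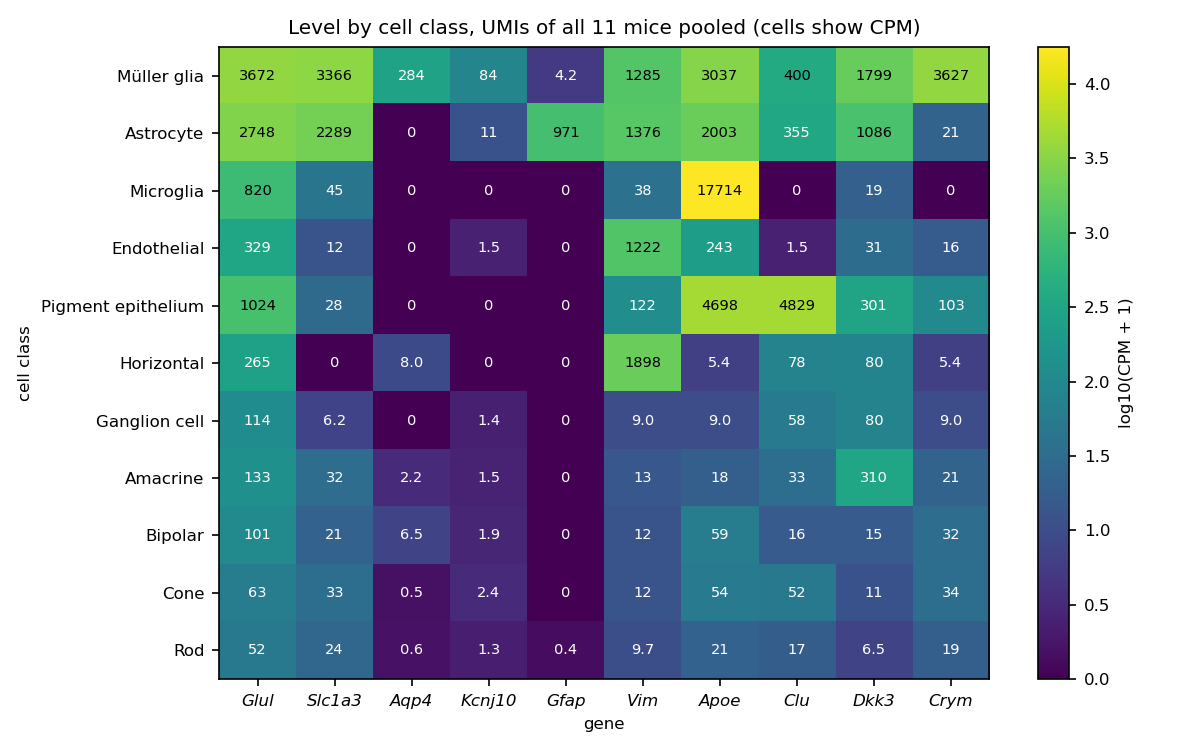
Levels of the 10 genes (columns) in 11 classes of cells (rows), all mice pooled. Colour is log10(CPM + 1) and each cell prints the pooled CPM. Müller glia hold high levels of all members but Gfap, which stands at 4.19 CPM there and 971 CPM in the astrocyte-like cells, while Apoe peaks in microglia-like cells (17714 CPM).

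Gfap was nearly absent from Müller glia at P10. The 1395 cells held 16 Gfap UMIs in 10 cells (0.717%, exact 95% binomial interval 0.344 to 1.31%). Control mice had 0, 0 and 0 UMIs, Phase I ROP mice 3, 1 and 1, ω-3 mice 7 and 1, and ω-6 mice 2, 1 and 0. In controls 0 of 260 cells had a UMI, which allows a share of cells with a UMI of up to 1.15% by a limit of 3 cells and 1.41% by the exact binomial limit, against 3 of 373 Phase I ROP cells (0.804%), 5 of 387 ω-3 cells (1.29%) and 2 of 375 ω-6 cells (0.533%). A difference between groups was not detectable at this depth, and Gfap did not pass the filter on low counts in any Müller fit. Of the 10 cells with Gfap, 4 also held a UMI of an astrocyte marker (Pax2, S100b, Aldh1l1 or Pdgfra). So did 156 of all 1395 Müller glia (11.2%). Aldh1l1 was in 84 Müller glia (6.02%) and in 0 of 47 astrocyte-like cells, so it did not mark the astrocyte-like cluster here. Pax2, the defining astrocyte marker of the retina, was at 0 in Müller glia of every mouse, and the summed level of the 4 markers was 36.3 to 81.7 CPM in control and 31.2 to 84.2 CPM in Phase I ROP mice.

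In the astrocyte-like cells, 38 of 47 (80.9%, interval 66.7 to 90.9%) held Gfap, with 971 CPM (859 to 1094). Rods, which lack the filament, had a Gfap UMI in 4 of 9980 cells (0.0401%), and cones, bipolar and amacrine cells in none. Pooled by group, Gfap in the astrocyte-like cells was at 494 CPM in 6 control cells (288 to 791), 1254 CPM in 13 Phase I ROP cells (970 to 1595), 1645 CPM in 8 ω-3 cells (1296 to 2060) and 768 CPM in 20 ω-6 cells (632 to 924). These intervals cover counting error and not the spread between mice. Single mice spanned 84.5 to 709 CPM in control, 925 to 1712 CPM in Phase I ROP, 1158 to 3245 CPM with ω-3 and 588 to 866 CPM with ω-6. With so few cells per mouse no test was run on the astrocyte-like cells.

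The neurons held UMIs of the members at a small share of the Müller level, and free RNA in droplets can give such UMIs. To set a scale, 7 Müller markers outside the list (Rlbp1, Sox9, Hes1, Car14, Abca8a, Col9a1 and Gpr37) were measured the same way. In rods those markers stood at 0.269 to 2.31% of their Müller level, and 8 of the 9 members other than Gfap were within that range, from Vim at 0.751% and Slc1a3 at 0.725% to Glul at 1.41% and Kcnj10 at 1.53%, or below it, with Aqp4 at 0.214%. Clu was above the range, at 4.25% in rods against 2.31%. In cones Clu was at 13.0% and Kcnj10 at 2.82% (9 UMIs), against a marker range of 0.268 to 1.83%.

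In bipolar cells the markers spread from 0.0675 to 4.42% and all 9 members lay within, the highest being Clu at 3.88% and Glul at 2.75%. In amacrine cells the range was 0.337 to 9.64%, and Dkk3 alone lay above it, at 17.2% of its Müller level. Dkk3 had 309.8 CPM and 4015 UMIs in amacrine cells, with a UMI in 35.7% of the cells, and the lowest of the 11 mice (259 CPM) was above the highest bipolar value (36.4 CPM). Gpr37 alone set the top of the range in amacrine cells, bipolar cells and rods, and the next marker, Sox9, was at 2.80% in amacrine and 2.99% in bipolar cells. Clu at 8.29% and Glul at 3.63% in amacrine cells, and Clu in bipolar cells, were thus above 6 of the 7 markers. By group, amacrine Clu was at 7.96% in control mice, where the highest marker was at 7.19%, at 5.13% against 8.19% in Phase I ROP, 11.4% against 14.2% with ω-3 and 9.57% against 8.96% with ω-6. For members inside the range, UMIs from free RNA and from the neurons themselves cannot be told apart.

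**Figure D2:**
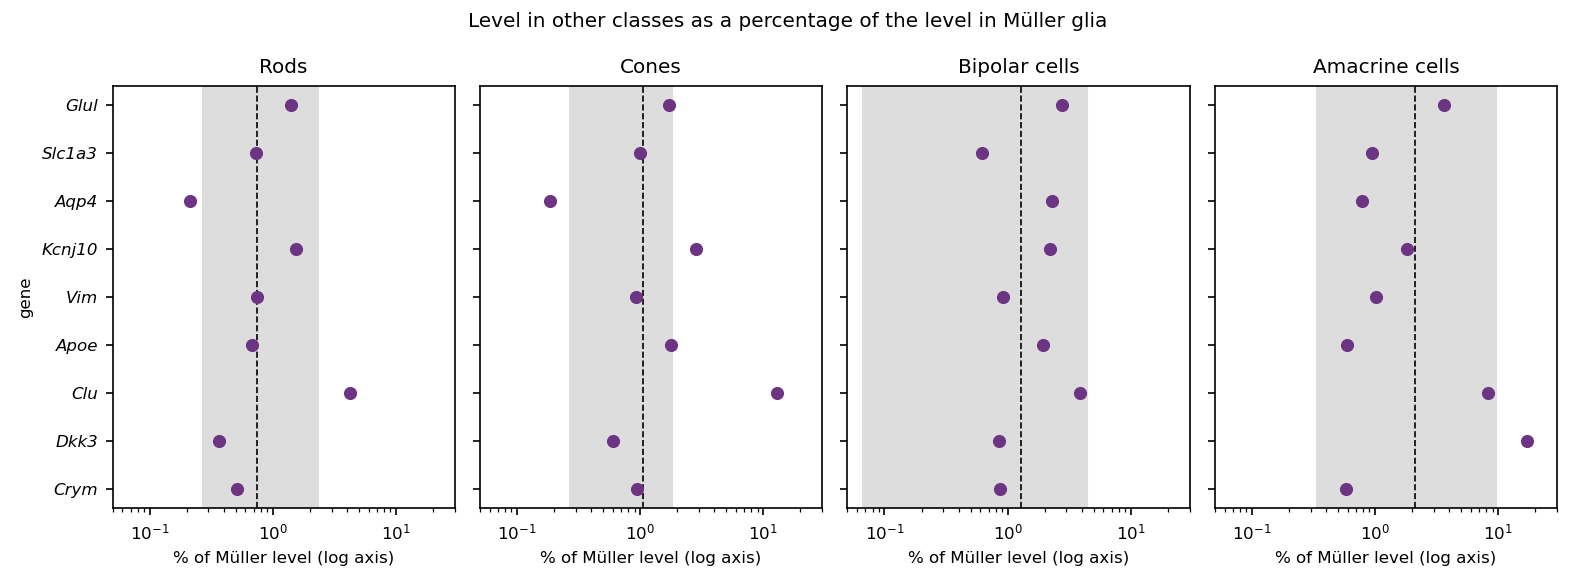
Pooled level of 9 members in rods, cones, bipolar and amacrine cells as a percent of the Müller level (log axis). The grey band is the range of 7 other Müller markers and the dashed line their pooled value. Clu lies above the band in rods (4.25%) and cones (13.0%), Kcnj10 in cones (2.82%), and Dkk3 in amacrine cells (17.2%).

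Over the 5 large classes in 11 mice (55 sums that share libraries and depth), the genes whose log2 CPM followed the mean of the members most closely were Chrdl1 (Pearson r = 0.984), Gm37509 (0.982), Dbi (0.980), Sbspon (0.980) and Col9a1 (0.978), among 10778 genes with at least 10 CPM in Müller glia. For single members the nearest genes were Prdx6 for Glul (0.958), Rlbp1 for Slc1a3 (0.966), Eno1 for Aqp4 (0.959) and Apoe (0.935), Cp for Kcnj10 (0.957), Car14 for Vim (0.967) and Crym (0.975), Crot for Clu (0.901), Atp1b3 for Dkk3 (0.968) and Cxcl10 for Gfap (0.862). These values describe likeness across classes and carry no test.

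Phase I ROP mice were set against control mice to ask how neonatal hyperglycemia bears on the retina. In Müller glia, Apoe fell by 50.8%, and none of the other 8 members tested passed the threshold. In CPM, the glutamate and potassium genes Slc1a3, Glul and Kcnj10 and the secreted Dkk3 lay higher in every Phase I ROP mouse than in every control mouse, and Crym lay lower. For Glul and Dkk3 the test, on its own trimmed-mean scale, gave log2 fold changes of 0.35 and 0.17 (edgeR, adjusted p = 0.339 and 0.580). In edgeR's quasi-likelihood test over 4834 genes, 541 passed an adjusted p under 0.05 (11.2%, with 5.19% lower), and 1 of the 9 members tested did. At an unadjusted p under 0.05 there were 26.9% of all genes and 4 of the 9 members. The mice of the groups did not overlap in CPM for 32.0% of all genes, against 6 of these 9, of which 4 were higher and 2 lower. Gfap was not tested. The median log2 fold change was 0.17 over the members and 0.01 over all genes.

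Apoe was at 4925, 5376 and 5565 CPM in the control mice and at 2710, 3072 and 2686 CPM in the Phase I ROP mice. The groups stood far apart, with means of 5289 ± 329 and 2823 ± 216 CPM (SD, n = 3 each). The log2 fold change was −1.02 (SE 0.21, 95% interval −1.46 to −0.59), a 2.03-fold lower level, with an adjusted p of 0.00396 (edgeR). It stayed called under every alternative run, with a log2 fold change of −1.10 to −0.97 when each mouse was left out in turn. Diet-fed mice, which also had STZ, held 2164 and 2558 CPM with ω-3 and 2246, 2599 and 2116 CPM with ω-6, each below every control mouse. Of 6 markers of microglia, whose cells had the highest Apoe, 3 were at 0 in Müller glia of all mice and the sum of all 6 was 0 to 10.8 CPM per mouse.

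For the glutamate pair, Slc1a3 was at 2634, 2956 and 2144 CPM in control mice and at 4262, 4806 and 3508 CPM in Phase I ROP mice. All 3 treated mice were above the highest control. The log2 fold change was 0.59 (SE 0.21, interval 0.14 to 1.04), with an adjusted p of 0.0850. It passed the threshold with no filter on low counts (0.0392) and with classes assigned by marker score (0.0411), with 0.0392 to 0.246 over all alternatives. Glul was at 4381, 4969 and 3367 CPM in control and 5892, 6525 and 5144 CPM in Phase I ROP mice, also without overlap. Its log2 fold change, on the trimmed-mean (TMM) scale of the test, was 0.35 (SE 0.23, adjusted p = 0.339).

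Of the potassium and water channels, Kcnj10 was at 27.2, 74.6 and 67.3 CPM in control and at 109, 147 and 140 CPM in Phase I ROP mice. No treated mouse was as low as a control. The log2 fold change was 1.12 (SE 0.36, interval 0.36 to 1.88), the highest of the members, but with an adjusted p of 0.0554. Kcnj10 passed with the replicate block (1.15, adjusted p = 0.0306) and with classes by marker score (1.27, adjusted p = 0.0315), with 0.0306 to 0.197 over all alternatives. Aqp4 (chr18:15389496-15410982, minus strand) was at 432, 522 and 306 CPM in control and at 471, 813 and 212 CPM in Phase I ROP mice. The treated mice spanned both sides of the controls, and the log2 fold change of 0.14 (SE 0.33, interval −0.55 to 0.83, adjusted p = 0.815) left the direction unknown.

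The filament gene Vim was at 1140, 1166 and 1176 CPM in control and at 1124, 1577 and 1636 CPM in Phase I ROP mice. One treated mouse was at the control level and the others above it, with a log2 fold change of 0.19 (SE 0.17, adjusted p = 0.496). The chaperone gene Clu was at 607, 515 and 619 CPM and at 618, 600 and 433 CPM, which overlapped (−0.19, SE 0.18, adjusted p = 0.530). Dkk3 was at 1708, 1864 and 2036 CPM in control and 2173, 2471 and 2189 CPM in Phase I ROP mice, apart in CPM but with a log2 fold change of 0.17 (SE 0.18, adjusted p = 0.580). Crym was at 4365, 4461 and 4224 CPM in control and at 2969, 3623 and 3448 CPM in Phase I ROP mice, all lower. Its log2 fold change was −0.50 (SE 0.20, interval −0.92 to −0.07), with an adjusted p of 0.119, which did not pass in any alternative.

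**Figure D3:**
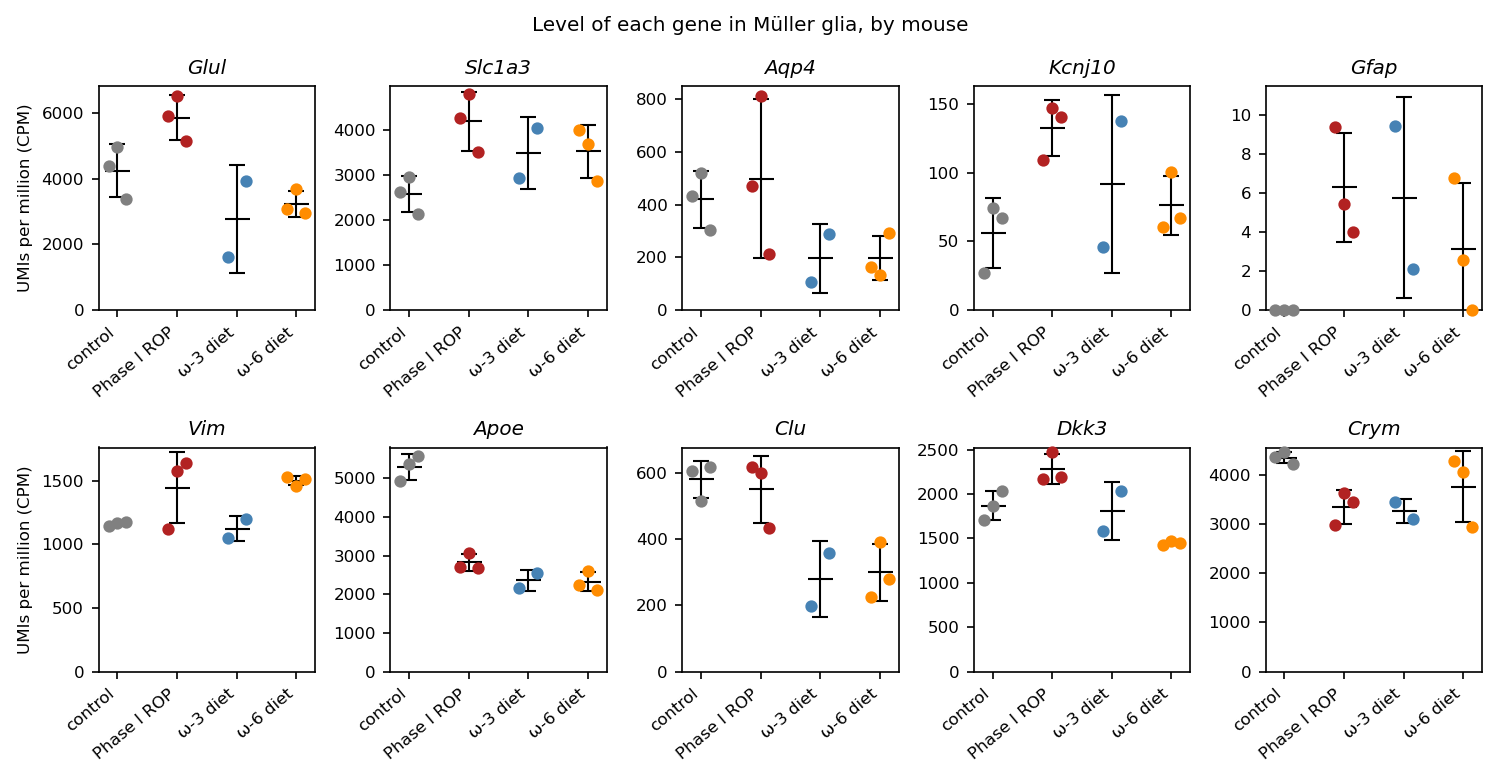
CPM of each member in Müller glia by group (linear axes from 0), 1 point per mouse, with the mean and SD. Apoe of the 8 STZ-treated mice lies at 2116 to 3072 CPM, under the 3 control mice (4925 to 5565 CPM).

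**Figure D4:**
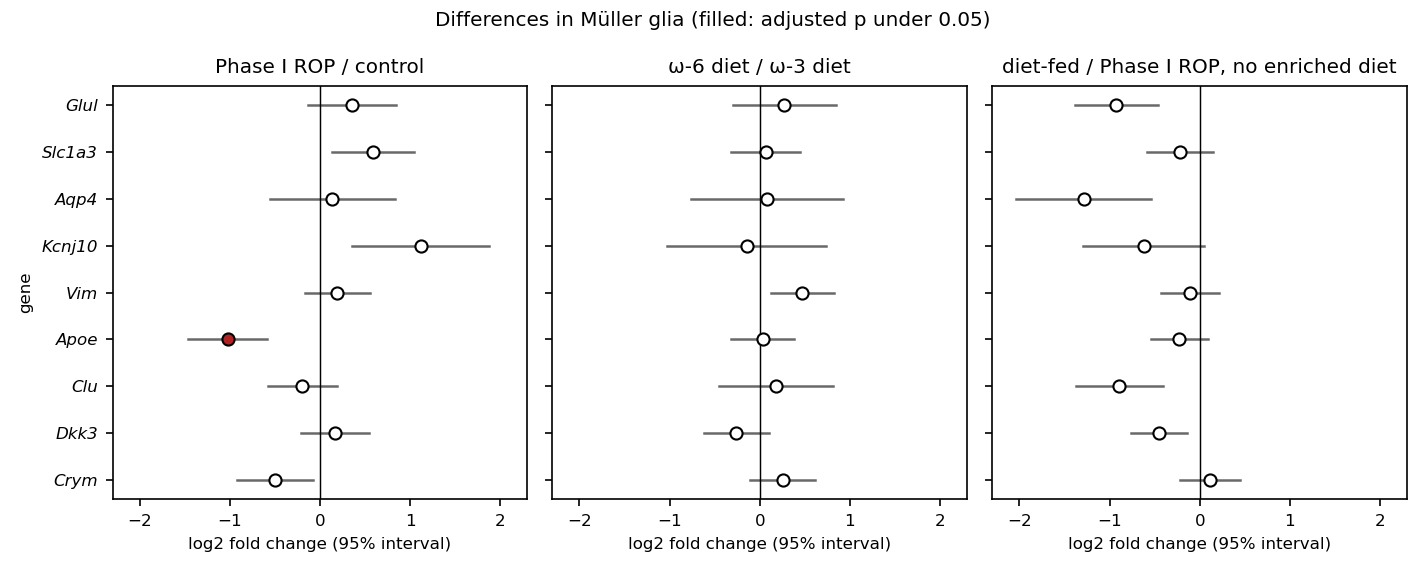
Log2 fold change of 9 members in Müller glia with its 95% interval in the 3 comparisons (Phase I ROP over control, ω-6 over ω-3 diet, diet-fed over Phase I ROP). Filled points have an adjusted p under 0.05, which is Apoe in Phase I ROP over control (−1.02).

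The share of Müller glia with at least 1 UMI was compared after each cell was thinned to 1000 UMIs, since the median depth per cell was 1953.5 to 2614 UMIs in control and 1557 to 1812 UMIs in Phase I ROP mice. Shallower cells were left out, which kept 214 of 260 control and 251 of 373 Phase I ROP cells. With 3 mice against 3 the smallest two-sided p of an exact permutation test is 0.1, so no share could pass. Slc1a3 was found in 71.4 ± 4.76% of control and 84.5 ± 4.13% of Phase I ROP cells (exact p = 0.1), Dkk3 in 69.8 ± 4.96% and 81.7 ± 3.16% (exact p = 0.1), and Crym in 92.1 ± 4.38% and 85.8 ± 0.89% (exact p = 0.1). Apoe was found in 92.4 ± 4.75% and 82.1 ± 5.06% of cells (exact p = 0.2). Kcnj10 was found in 7.78% and 9.75% (exact p = 0.6), but in 2.78% and 6.03% when thinned to 500 UMIs (exact p = 0.1) and in 5.19% and 9.99% with clusters made without the members (exact p = 0.1). Clu was found in 36.4% and 32.9% (exact p = 0.2) and Aqp4 in 22% and 25.5% (exact p = 0.7). Without thinning, Apoe was in 94.7% and 85.3% of cells and Slc1a3 in 76.2% and 81.5%, while Dkk3 was in 76% and 75.2%.

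**Figure D5:**
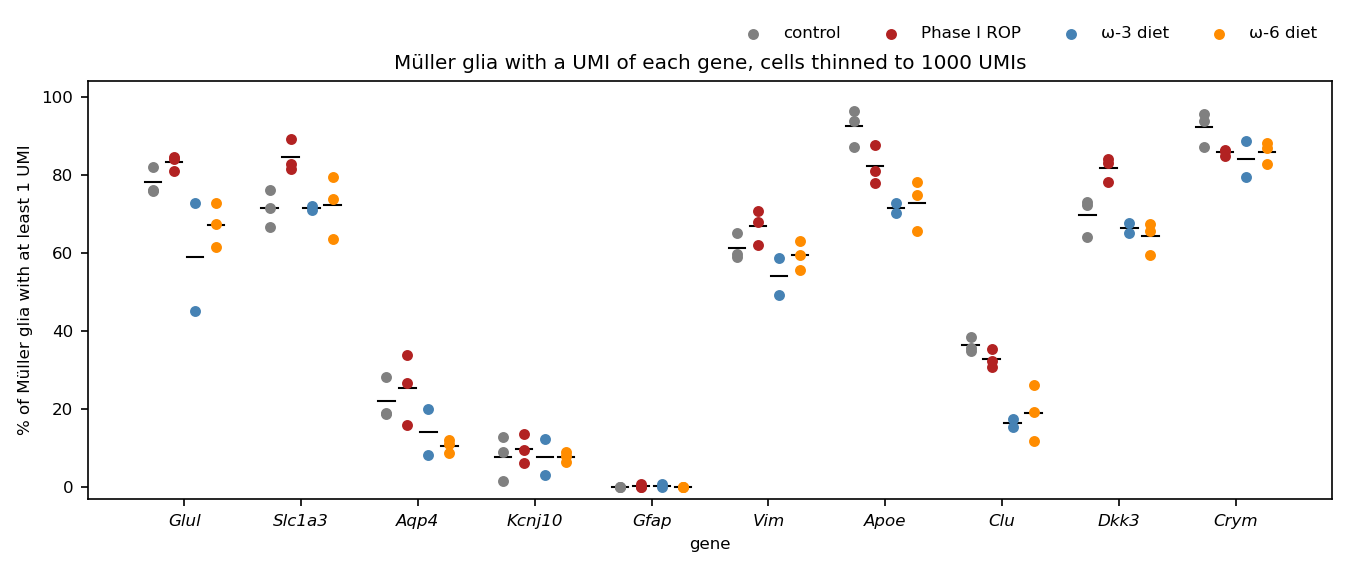
Percent of Müller glia with at least 1 UMI of each member after thinning to 1000 UMIs per cell, 1 point per mouse, with the group mean as a line. Slc1a3 averages 71.4% in control and 84.5% in Phase I ROP mice, Apoe 92.4% and 82.1%.

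Other Müller genes were read from 7 lists, by their calls in the same fit. The lists were chosen with earlier results of these data known, so their counts of calls are a description and no test. Of 30 genes of Müller function, 25 were tested, 3 were higher and 1 lower in Phase I ROP, with a median log2 fold change of 0.25. These 4 calls of 25 stand beside 11.2% of all genes, and the late progenitor list below had 1 of 8, which sets neither list apart. Timp3, an inhibitor of matrix metalloproteinases, rose from 122 to 190 CPM in control mice to 322 to 569 CPM (1.48, SE 0.24, adjusted p = 0.00085). The GABA transporter gene Slc6a11 rose by 1.04 (SE 0.29, adjusted p = 0.0307), from 57.0 to 113 CPM to 178 to 229 CPM. Dbi, which encodes an acyl-CoA binding protein, was at 4519 to 6089 CPM in control and 3027 to 3688 CPM in Phase I ROP mice (−0.75, SE 0.22, adjusted p = 0.0350). Slc6a11 lost its call without control mouse 2 or 3 or any 1 Phase I ROP mouse (adjusted p = 0.0520 to 0.144), and Dbi without control mouse 1 (0.118), Phase I ROP mouse 2 (0.0544) or 3 (0.130).

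Among genes that anchor potassium and water channels (dystrophin complex, laminins and other channels), 9 of 17 were tested and 0 called, with 3 at an unadjusted p under 0.05 and a median log2 fold change of 0.51. Of 35 gliosis genes in the file, 12 were tested, 7 rose and 0 fell, with a median of 1.42. Over all genes tested 11.2% were called in either direction. The rest of the 35 did not pass the filter on low counts, nor did Gfap, and Vim was not called. The chemokine gene Cxcl10 had 0 UMIs in control and 42 in Phase I ROP mice, at least 14.7-fold higher against a floor of 3 counts over the group (adjusted p = 0.000539). Cebpb, a transcription factor gene of the acute phase, had 2 and 215 UMIs, a ratio of 113 (30.9 to 938, adjusted p = 2.7e-07). Of 22 tested immediate early and dissociation response genes 19 rose and 0 fell (median 2.96), of which Nr4a3 had 0 UMIs in control and 346 in Phase I ROP mice (at least 121-fold higher) and Egr3 0 and 189 (at least 66.2-fold). Both medians were the same with genes at 0 in every control mouse set at their bound. Cxcl10, Cebpb, Nr4a3 and Egr3 passed the filter on low counts through their counts in Phase I ROP mice. The summed level of 27 such genes was 1715 to 2797 CPM in control and 8096 to 12516 CPM in Phase I ROP mice, and its part in the differences of the members was not tested.

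Genes of lipid particles, such as lipoprotein receptors and lipid transporters, gave 0 calls among 6 tested of 19, with a median of 0.62 and 0 at an unadjusted p under 0.05. In this fit, where 11.2% of all genes were called, late progenitor genes gave 1 higher and 0 lower of 8 tested (median 0.43). That was the cyclin gene Ccnd3, at 81.7 to 149 CPM in control and 206 to 267 CPM in Phase I ROP mice (0.87, SE 0.26, adjusted p = 0.0434), which lost its call without control mouse 1 (0.197) or 3 (0.0905), or without Phase I ROP mouse 1 (0.0906), 2 (0.147) or 3 (0.0677). Of 4 glucose and glycogen genes tested (median −0.21), 1 was lower: Ldha, the lactate dehydrogenase subunit, was at 702 to 1229 CPM in control and 621 to 641 CPM in Phase I ROP mice (−0.74, SE 0.19, adjusted p = 0.0197). Ldha lost its call without control mouse 1 (0.133) or 2 (0.0570), or Phase I ROP mouse 2 (0.0913) or 3 (0.0574).

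In the other large classes the members gave 5 calls between Phase I ROP and control mice, on low counts. Pooled, rod Apoe (0.678% of its Müller level), bipolar Glul (2.75%), amacrine Glul (3.63%) and amacrine Clu (8.29%) lay within the marker range. For these, UMIs from free RNA and from the neurons cannot be told apart. Cone Clu (13.0%) lay above its range. Apoe and Glul went the same way in Müller glia, and how free RNA bears on the calls was not tested. In rods, where 43.5% of 8165 genes were called and 22.5% were lower, Apoe fell, as 1 of 4 members tested. The control mice held 52.8, 30.8 and 58.7 CPM (18, 10 and 29 UMIs) and the Phase I ROP mice 19.2, 11.3 and 9.24 CPM (20, 7 and 10 UMIs). All treated mice were lower, with a log2 fold change of −2.12 (SE 0.42, adjusted p = 0.000834). Rod Glul was at 41.1, 43.1 and 14.2 CPM in control and 86.6, 66.2 and 67.4 CPM in Phase I ROP mice (0.94, SE 0.38, adjusted p = 0.0521), and passed without control mouse 1 (1.23, adjusted p = 0.0272) or 2 (1.23, adjusted p = 0.0222).

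In cones, 19.0% of 3127 genes were called, 8.35% lower, and Clu, as 1 of 3 members tested, went from 55.8, 238 and 205 CPM (2, 10 and 19 UMIs) to 65.6, 78.6 and 53.7 CPM (14, 17 and 15 UMIs). The groups overlapped through the first control mouse. The log2 fold change was −1.62 (SE 0.47, adjusted p = 0.0180), and the call was lost without control mouse 3 (−1.26, 0.197), Phase I ROP mouse 2 (−1.59, 0.0647) or 3 (−1.37, 0.0993).

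In bipolar cells, where 45.0% of 9718 genes were called and 21.6% were higher, Glul rose from 50.2, 78.7 and 59.7 CPM to 141, 122 and 123 CPM, as 1 of 6 members tested. All treated mice were higher (0.65, SE 0.22, adjusted p = 0.0244). The call was lost without control mouse 1 (0.126) or 3 (0.0689), or Phase I ROP mouse 1 (0.116) or 3 (0.0540). Bipolar Apoe was at 56.1, 52.9 and 90.5 CPM and 53.8, 68.0 and 50.4 CPM, which overlapped (−0.62, SE 0.26, adjusted p = 0.0669). It passed without control mouse 1 (−0.77, 0.0486) or 2 (−0.81, 0.0277).

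In amacrine cells, where 38.8% of 11155 genes were called (18.2% higher and 20.7% lower), 6 members were tested and Glul rose from 77.4, 103 and 80.1 CPM to 147, 158 and 160 CPM (0.49, SE 0.17, adjusted p = 0.0307). Leaving out any mouse but control mouse 2 gave adjusted p-values of 0.0571 to 0.135. Amacrine Clu fell from 46.9, 44.5 and 51.5 CPM to 11.5, 40.9 and 33.3 CPM, all lower (−1.09, SE 0.33, adjusted p = 0.0171). Dkk3, the member that amacrine cells held above the free RNA range, was at 270, 285 and 292 CPM in control and 259, 377 and 372 CPM in Phase I ROP mice, so that the mean was 282 CPM in control and 336 CPM in Phase I ROP mice. On the TMM scale of the test the log2 fold change had the other sign (−0.10, SE 0.14, adjusted p = 0.605), and without Phase I ROP mouse 1 it was 0.044, so no direction can be given.

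A further fit asked whether the Phase I ROP effect differed between Müller glia and each other class, with the mouse as a block. For Apoe the difference did not pass in any class, with 0.94 against rods (adjusted p = 0.0735), −0.59 against cones (0.692), −0.52 against bipolar cells (0.197) and −0.92 against amacrine cells (0.345). Apoe against rods passed without control mouse 2 (1.34, 0.00639) or Phase I ROP mouse 1 (1.44, 0.0260), and against bipolar cells without control mouse 3 (−0.75, 0.0412). Against rods, 6.01% of 9038 genes differed, and the members called were Dkk3, Kcnj10 and Crym. None of these passed the filter on low counts in the rod fit itself. Here the filter was run on Müller and rod sums together, which they passed through their Müller counts. Dkk3 went in rods from 20.5, 21.6 and 16.2 CPM (7, 7 and 8 UMIs) to 5.77, 4.85 and 4.62 CPM (6, 3 and 5 UMIs), with 1708 to 2036 and 2173 to 2471 CPM in Müller glia, a difference of 2.14 (SE 0.44, adjusted p = 0.00239). Kcnj10 rested on 1, 4 and 2 rod UMIs in control and 1, 0 and 1 in Phase I ROP mice (3.84, SE 1.03, adjusted p = 0.0210), and was lost without control mouse 2 (0.119), Phase I ROP mouse 2 (0.0625) or 3 (0.0818). Those 7 control UMIs put Kcnj10 of rods at 10.8% of its Müller level, above the marker range of 0.260 to 6.01% in control mice.

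Crym went in rods from 11.7, 9.24 and 6.07 CPM to 22.1, 8.08 and 24.9 CPM, while the Müller level was lower in every Phase I ROP mouse, a difference of −1.50 (SE 0.45, adjusted p = 0.0431). That call was lost when any mouse but Phase I ROP mouse 2 was left out (adjusted p = 0.0896 to 0.293). Against bipolar cells 1.79% of 10506 genes differed, and Crym was the 1 member, with bipolar levels of 5.97, 11.6 and 17.5 CPM in control and 25.2, 44.0 and 18.9 CPM in Phase I ROP mice (−1.45, SE 0.30, adjusted p = 0.00834). It was lost without control mouse 1 (0.0621) or Phase I ROP mouse 2 (0.156). Against cones 0.786% of 7128 genes and against amacrine cells 0.693% of 12266 genes differed, with 0 members called.

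In the small glial clusters the levels by group were given without a test. Apoe of the microglia-like cells was at 20725 CPM in 12 control cells (mice 19558 to 22679), 11487 CPM in 14 Phase I ROP cells (10457 to 12014), 20411 CPM in 14 ω-3 cells (10983 to 25002) and 15801 CPM in 18 ω-6 cells (12604 to 25097). Apoe of the astrocyte-like cells was at 3518, 2374, 1537 and 1659 CPM in the same order of groups. In the pigment epithelium-like cells Clu was at 11613, 5708, 3777 and 3131 CPM and Apoe at 8959, 7382, 2158 and 3151 CPM, from 9, 12, 14 and 41 cells. The control group held the highest pooled value of Apoe in each of these 3 clusters, but this order is not read as a pattern. In the microglia-like cells its counting interval (19282 to 22247 CPM) overlapped that of ω-3 (19161 to 21721 CPM). In the pigment epithelium-like cells it overlapped that of Phase I ROP. The mice with astrocyte-like cells spanned 2281 to 4167 CPM in control and 1998 to 4356 CPM in Phase I ROP.

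The diet comparison asked how the Müller genes of STZ-treated mice differ with ω-6 against ω-3 fatty acids. The ω-3 and ω-6 mice were nursed in separate cages, so diet, cage and nursing dam cannot be told apart here. No member differed past the threshold, and neither did any of 7531 genes tested in Müller glia (0.0% called by edgeR, with 300 genes or 3.98% at an unadjusted p under 0.05, and 2 genes called by DESeq2). Vim was at 1052 and 1195 CPM with ω-3 and 1531, 1458 and 1513 CPM with ω-6. Every ω-6 mouse was higher, as for 6.77% of all genes, with a log2 fold change of 0.47 (SE 0.17, interval 0.12 to 0.83, unadjusted p = 0.0121, adjusted p = 0.989 from edgeR). Dkk3 was at 1580 and 2037 CPM with ω-3 and 1430, 1473 and 1448 CPM with ω-6, lower in every ω-6 mouse, as for 12.8% of all genes (−0.26, SE 0.17).

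The intervals of the other members spanned 0. Glul was at 1608 and 3939 CPM with ω-3 and 3069, 3675 and 2948 CPM with ω-6, which lay between (0.27, interval −0.30 to 0.85). Its difference was 1.08 without ω-3 mouse 2 and −0.24 without ω-3 mouse 1. Leaving out the same mice took Aqp4 to 0.99 and −0.51, Kcnj10 to 0.83 and −0.79, and Clu to 0.68 and −0.21, so these values rest on which of the 2 ω-3 mice is kept. Apoe differed by 0.03 on the log2 scale (interval −0.32 to 0.38), which leaves out a change of the size seen between Phase I ROP and control mice. Aqp4 was at 105 and 290 CPM and 165, 134 and 291 CPM (0.08, interval −0.77 to 0.92), and Kcnj10 at 45.7 and 138 CPM and 60.7, 101 and 67.3 CPM (−0.15, interval −1.03 to 0.73), so the data left wide room for a change in either channel. Slc1a3, Clu and Crym differed by 0.07, 0.18 and 0.25. The median log2 difference was 0.08 over the members and 0.00 over all genes. The thinned shares of cells with Vim were 54.0% with ω-3 and 59.4% with ω-6 (exact permutation p = 0.4), and those with Dkk3 66.3% and 64.2% (p = 0.8). Thinned to 500 UMIs, Dkk3 was in 48.8% of cells with ω-3 (46.2 to 51.5%) and in 37.8% with ω-6 (35.3 to 40.9%), which did not overlap (exact p = 0.2). With 2 mice against 3 this permutation test gives no p below 0.2, so no share could pass. In each of the 7 gene lists, 0 genes were called between the diets.

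In the other 4 classes the diet fits called 0 genes with edgeR (0.0%), with 1373 rod (10.9%), 710 cone (7.76%), 506 bipolar (4.24%) and 1309 amacrine genes (9.74%) at an unadjusted p under 0.05, and 25, 2, 2 and 10 called by DESeq2. Crym of cones was at 12.3 and 20.7 CPM (7 and 12 UMIs) with ω-3 and at 21.5, 82.6 and 56.7 CPM (11, 63 and 27 UMIs) with ω-6. All 3 were higher, by 1.77 on the log2 scale (SE 0.50, unadjusted p = 0.0025, adjusted p = 0.487 from edgeR). Apoe of amacrine cells was at 57.3 and 24.6 CPM and at 12.6, 3.87 and 27.1 CPM, which overlapped (−1.48, SE 0.54, adjusted p = 0.490), and passed with the replicate block (−2.28, adjusted p = 0.000133).

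Set against the 3 Phase I ROP mice without an enriched diet, the 5 diet-fed mice had lower Glul, Apoe, Clu and Dkk3 in every animal, but no member passed the threshold. Only 6 of 7711 genes did (0.0778%), and 3.75% of all genes were lower without overlap. At an unadjusted p under 0.05 there were 7.73% of all genes and 4 of the 9 members tested, Glul, Clu, Aqp4 and Dkk3. Glul of the diet-fed mice, at 1608 to 3939 CPM, lay under the Phase I ROP mice, at 5144 to 6525 CPM (−0.93, SE 0.22, interval −1.38 to −0.47, adjusted p = 0.205). It passed without ω-3 mouse 2 (−1.32, adjusted p = 0.00185). Clu was at 199 to 392 CPM against 433 to 618 CPM (−0.89, SE 0.23, adjusted p = 0.254), and Dkk3 at 1430 to 2037 CPM against 2173 to 2471 CPM (−0.45, SE 0.15, adjusted p = 0.485).

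Aqp4 was at 105 to 291 CPM against 212 to 813 CPM and overlapped (−1.29, SE 0.36, adjusted p = 0.292). Without Phase I ROP mouse 3, the lowest of its group, Aqp4 passed (−1.65, adjusted p = 0.0396). Apoe differed by −0.23 (adjusted p = 0.786), Kcnj10 by −0.62 (adjusted p = 0.678) and Crym by 0.11. Of the gene lists, the immediate early and dissociation list gave 1 higher and 2 lower of 26 tested, and the others 0 calls. In all, 8 of the 9 members tested were negative, with a median of −0.45 over the members and −0.01 over all genes. These are the Phase I ROP mice that were also compared with controls, and the diet-fed mice differ from them in litter, cage and source as well as diet.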

How the data were processed

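The authors captured single cells by inDrop (version 3), processed reads with bcbio-nextgen and umis, quantified them with Rapmap on GRCm38 transcripts, left out barcodes with few reads and deposited raw UMI counts per gene and cell. The labels list the builds mm10 and GRCm38.p6. Cells with over 300 genes were clustered in Seurat 5.3.0 by the study's steps (75 principal components, resolution 0.2, 24 clusters) and named from markers. Doublets were kept, since Scrublet called too few cells to be used (0.359%), and an alternative left out the 5% of cells with the highest scores. Libraries shared 1154 of 18842 barcodes and held 2565570 to 6517780 UMIs each. Counts were summed per mouse and class and tested with edgeR 4.0.16 (quasi-likelihood, TMM, default filter on low counts, Benjamini-Hochberg adjusted p under 0.05). The edgeR fits, but not DESeq2 or the permutation test, were tried first on simulated data. In simulated Müller sums a 2-fold change was called for 29.2% of genes (Phase I ROP against control) and 11.1% (diets), so such changes can be missed. The fit between classes was simulated with equal levels in both classes, unlike the few rod UMIs of the members. Intervals of pooled levels, pooled ratios and shares of cells, and floors, cover counting error only. Those of log2 fold changes also hold the spread between mice. DESeq2 1.42.0 and the other alternatives are given under the processing below, and 2 of them, the diet fits without cells that hold an astrocyte marker, were chosen after seeing the data. Named genes are the 10 members, in each list the called genes with the 2 largest rises and falls whose mice did not overlap, and the genes most alike in pattern. The members and lists were chosen with earlier results of these data known. Shares of cells were thinned to 1000 UMIs per cell, with 500 UMIs, no thinning and clusters made without the members as alternatives. P-values of the fits weigh differences between groups against the spread between mice, and those of the permutation test compare splits of the mice.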

Additional observations from a re-analysis of the deposited data

Results flagged for a closer look

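For 4 results, the Phase I ROP effect in Müller glia differed from that in another class by a test of the difference itself (edgeR, mouse as a block, adjusted p under 0.05 over all genes). Against rods, the log2 difference was 2.14 for Dkk3 (adjusted p = 0.00239), 3.84 for Kcnj10 (adjusted p = 0.0210) and −1.50 for Crym (adjusted p = 0.0431). Against bipolar cells it was −1.45 for Crym (adjusted p = 0.00834). In rods and bipolar cells these genes were counted in 0 to 27 UMIs per mouse. In the rod fit itself Dkk3, Kcnj10 and Crym did not pass the filter on low counts, and they entered the test of the difference through Müller counts. Pooled over all groups they lay within the levels of Müller markers outside the list, but in control rods Kcnj10 was at 10.8% of its Müller level and Crym at 0.2%, above and below the marker range of 0.260 to 6.01%. The call of Kcnj10 and those of Crym against rods and against bipolar cells were lost when some single mice were left out.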

How the results depend on the processing

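Apoe in Müller glia, Phase I ROP against control, was lower and called under every alternative run. The alternative without cells with an astrocyte marker also left out Müller glia with Aldh1l1, which no astrocyte-like cell held. The count of called genes in that comparison was 541, and went to 298 with DESeq2, 313 to 454 when each mouse was left out in turn (313 without control mouse 1 and 322 without Phase I ROP mouse 2), 454 without the 5% highest doublet scores, 394 with sums thinned to equal depth and 395 without cells with an astrocyte marker. For the ω-6 against ω-3 diet, the 0 called genes became 2 with DESeq2, 12 with no filter on low counts and 0 to 2 when each mouse was left out. For diet-fed against Phase I ROP mice, the 6 called genes became 22 with DESeq2, 68 with no filter, 3 with classes by marker score, 2 without the highest doublet scores and 1 to 18 with each mouse left out. There, Glul was called with DESeq2 (−0.92, adjusted p = 0.0258) and Clu with no filter (adjusted p = 0.0257).

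Whether the replicate numbers in the titles mark pairs is not known, and 2 or 3 mice per group are too few to decide it. Deviations of same-numbered Phase I ROP and control mice correlated at 0.0217, 0.0400 and 0.142. Those of mice with other numbers correlated at −0.0979 to 0.0606. Between diets, same-numbered mice were at 0.0670 and 0.264 and the others at −0.264 to 0.193. With the replicate block the counts were 692 for Phase I ROP against control, 11 for the diets and 12 for diet-fed against Phase I ROP. The block turned the sign of Aqp4 in Phase I ROP (−0.023) and between diets (−0.23), and of Crym in diet-fed mice (−0.055).

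Other differences that were not called also turned sign, with the cause not tested. Between diets, Slc1a3 was −0.0053 with no filter and −0.056 by marker score, Aqp4 −0.092 and Clu −0.068 by marker score, and Kcnj10 0.31 without cells with an astrocyte marker. Apoe was −0.038 with no filter, −0.000321 in cells with over 500 genes, −0.12 by marker score and −0.010 without the highest doublet scores. With each mouse left out, Aqp4 ran from −0.32 to 0.52 in Phase I ROP, and Dkk3 of amacrine cells from −0.17 to 0.044. Between diets, Glul ran from −0.24 to 1.08, Slc1a3 from −0.16 to 0.34, Aqp4 from −0.51 to 0.99, Kcnj10 from −0.79 to 0.83, Apoe from −0.093 to 0.18 and Clu from −0.21 to 0.68. Depth limits Gfap, with 16 UMIs in Müller glia, and most members in neurons.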
